A study of Mus musculus with 14 samples.

Results

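The type I interferon-stimulated genes described here are 31 mouse genes of the antiviral response. They were taken by symbol from a list drawn up with earlier results of these data known, with no threshold on a measured value, out of 29737 gene symbols in the deposited tables of a study of mouse liver. By role they are 4 transcription factors (Irf1, Irf7, Irf9 and Stat2), 5 nucleic acid sensors (Ifih1, Ddx58, Dhx58, Zbp1 and Eif2ak2), 5 members of the 2'-5'-oligoadenylate synthetase (OAS) family (Oas1a, Oas2, Oas3, Oasl1 and Oasl2) and 3 of the IFIT family (Ifit1, Ifit2 and Ifit3). The others are 2 genes of the ISG15 system (Isg15 and Usp18), 6 antiviral effectors (Rsad2, Cmpk2, Mx1, Mx2, Bst2 and Trim30a) and 6 further induced genes (Ifi44, Ifi27l2a, Xaf1, Parp14, Rtp4 and Ifi35). All 31 were present in both bulk tables and 29 in the table of nuclei, where Mx1 and Mx2 were not analysed.

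Liver RNA was measured in 12 bulk RNA-seq libraries and 2 single-nucleus libraries. In the first bulk comparison, 3 libraries are labelled wild type (WT) and 3 are labelled Ms4a7 knockout (KO). All 6 are labelled as whole liver of mice given a diet that causes nonalcoholic steatohepatitis (NASH, a fatty and inflamed liver) over 22 weeks. Ms4a7 encodes a membrane protein made mainly by macrophages. The libraries of the second bulk comparison are labelled as liver of wild-type mice on chow, with tail-vein injections on 6 days in a row, of phosphate-buffered saline (PBS, 3 libraries) or of lipid droplets (LD, 3 libraries). Each single-nucleus library pooled 3 NASH livers of 1 genotype, wild type or Ms4a7 KO, so a genotype there is 1 library with no replicate. How the Ms4a7 allele was made, the age of the mice and the source of the droplets are not given in the sources used here. The labels do not say that replicate libraries came from separate animals, so each p-value measures the spread between these libraries, which may be technical.

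The genotype labels of the bulk libraries went against the targeted gene. Ms4a7 had a normalized count of 19.6 ± 8.67 (SD, n = 3) in the libraries labelled WT and 118 ± 17.0 (n = 3) in those labelled KO. It rose by 2.63 ± 0.37 (SE) on the log2 scale (limma, adjusted p = 0.0149), a call that was lost without KO replicate 2 (adjusted p = 0.0631) or 3 (adjusted p = 0.0538). These 6 libraries also sit in the table whose name refers to droplets, under the added header words Untreated for the libraries labelled WT and Treated for those labelled KO. In the other table, whose name refers to Ms4a7, the gene had 103 ± 52.9 over the PBS-labelled libraries and 9.14 ± 1.46 over the LD-labelled ones (log2 fold change -3.26 ± 0.39, adjusted p = 0.00428). Whether the genotype, diet and injection labels of these 12 libraries are right cannot be told apart from these values, so every bulk group below is given as "labelled". Depth was 21945394 to 23126164 reads in genes per library labelled WT or KO, and 39318264 to 41346464 per library labelled PBS or LD.

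As background, cells that detect foreign or misplaced nucleic acid secrete type I interferons. These bind the receptor IFNAR1/IFNAR2 on the same and neighbouring cells, and the kinases JAK1 and TYK2 then phosphorylate STAT2, which acts with IRF9 in the complex ISGF3. ISGF3 binds a short promoter element, the interferon-stimulated response element, and switches on the genes listed above, several of which encode sensors and transcription factors that feed the loop. In liver, Kupffer cells and recruited macrophages, endothelial cells and hepatocytes can all respond to type I interferon.

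The element that ISGF3 binds is visible in the DNA of part of the set. RefSeq promoter windows of 300 bases (build GRCm38.p6) were found for 22 of the 31 genes, and the 250 bases before the transcript start were searched on both strands for the core of that element, GAAA, any 2 bases and GAAA again, which on the other strand reads TTTC, any 2 bases and TTTC. The letters were found for 9 of these 22 genes (40.9%), against 936 of 27025 genes over the whole promoter table (3.46%). Matches at 2 or more positions, which may overlap, were found for 5 of the 22 (22.7%), against 0.211% of all genes. The 5 are shown here because they show the element in its plainest form, and Trim30a is shown because it is one of the called genes below. Each is written 5' to 3' on the strand of its gene, and capitals mark the matched bases. All lie upstream of the RefSeq start: Isg15 at chr4:156200860-156200911 (minus strand), Oas1a at chr5:120907526-120907560 (minus), Bst2 at chr8:71537572-71537617 (minus), Ifit1 at chr19:34640770-34640828 (plus), Ifit3 at chr19:34583358-34583431 (plus) and Trim30a at chr7:104465205-104465244 (minus).
Isg15: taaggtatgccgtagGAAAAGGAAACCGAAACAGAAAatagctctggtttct
Oas1a: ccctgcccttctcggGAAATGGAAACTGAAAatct
Bst2: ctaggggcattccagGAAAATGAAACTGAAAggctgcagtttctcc
Ifit1: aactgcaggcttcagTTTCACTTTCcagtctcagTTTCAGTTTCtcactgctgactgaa
Ifit3: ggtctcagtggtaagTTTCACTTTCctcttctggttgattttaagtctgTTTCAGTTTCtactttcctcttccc
Trim30a: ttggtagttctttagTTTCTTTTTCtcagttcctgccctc

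In Isg15 3 overlapping matches form 1 run whose first base lies 78 bases before the start. In Oas1a and Bst2 2 matches overlap, and in Ifit1 and Ifit3 2 matches stand apart. Stat2, Oas3 and Rsad2 held 1 match each, as did Trim30a. A further Trim30a window (chr7:104446076-104446375) held no match. No match was found for Irf1, Irf7, Irf9, Ifih1, Ddx58, Eif2ak2, Oasl1, Oasl2, Ifit2, Cmpk2, Ifi44, Xaf1 and Ifi35, which says only that these letters are not in the window searched. Dhx58, Zbp1, Oas2, Usp18, Mx1, Mx2, Ifi27l2a, Parp14 and Rtp4 had no window. Some of the genes are neighbours in the genome: Oas1a, Oas2 and Oas3 form a cluster on chromosome 5, Oasl1 and Oasl2 a second one elsewhere on that chromosome, the 3 IFIT genes lie on chromosome 19, and Rsad2 and Cmpk2 are next to each other on chromosome 12 (mm10, GENCODE M21). Reads could be shared between close copies (Ifit3 and Ifit3b, Oas1a and Oas1g, Ifi27l2a and Ifi27l2b, the Trim30 cluster), and how the authors' counting split them is not given in the sources used here.

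The first comparison asked how the set differed between livers labelled Ms4a7 KO and those labelled WT, all labelled as NASH diet. Irf1, a transcription factor induced by interferons, and Trim30a, a mouse TRIM protein that restrains inflammatory signalling, rose in the libraries labelled KO. No member fell, and 29 of 31 did not pass. The 2 calls are 2 of 31 tested, all 31 having passed the filter on low values, beside 3.72% of the 15827 genes tested (3.02% called higher and 0.701% called lower). At an unadjusted p under 0.05 there were 7 members, beside 18.7% of all genes. The estimate was above 0 for 28 of the 31, beside 47.2% of all genes, and for 23 of 31 after quantile normalization. When 1 library was left out, it was above 0 for 20 of 31 (without WT replicate 3) to 29 of 31 (without WT replicate 2). The median log2 fold change was 0.42, against -0.02 over all genes, and the range ran from -0.17 for Ifih1 to 1.48 for Oas3. Oas3 passed the filter on low values only through the libraries labelled KO. In this main fit the share of members called lies near the background, while the estimates lie mostly on the higher side.

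**Figure D1:**
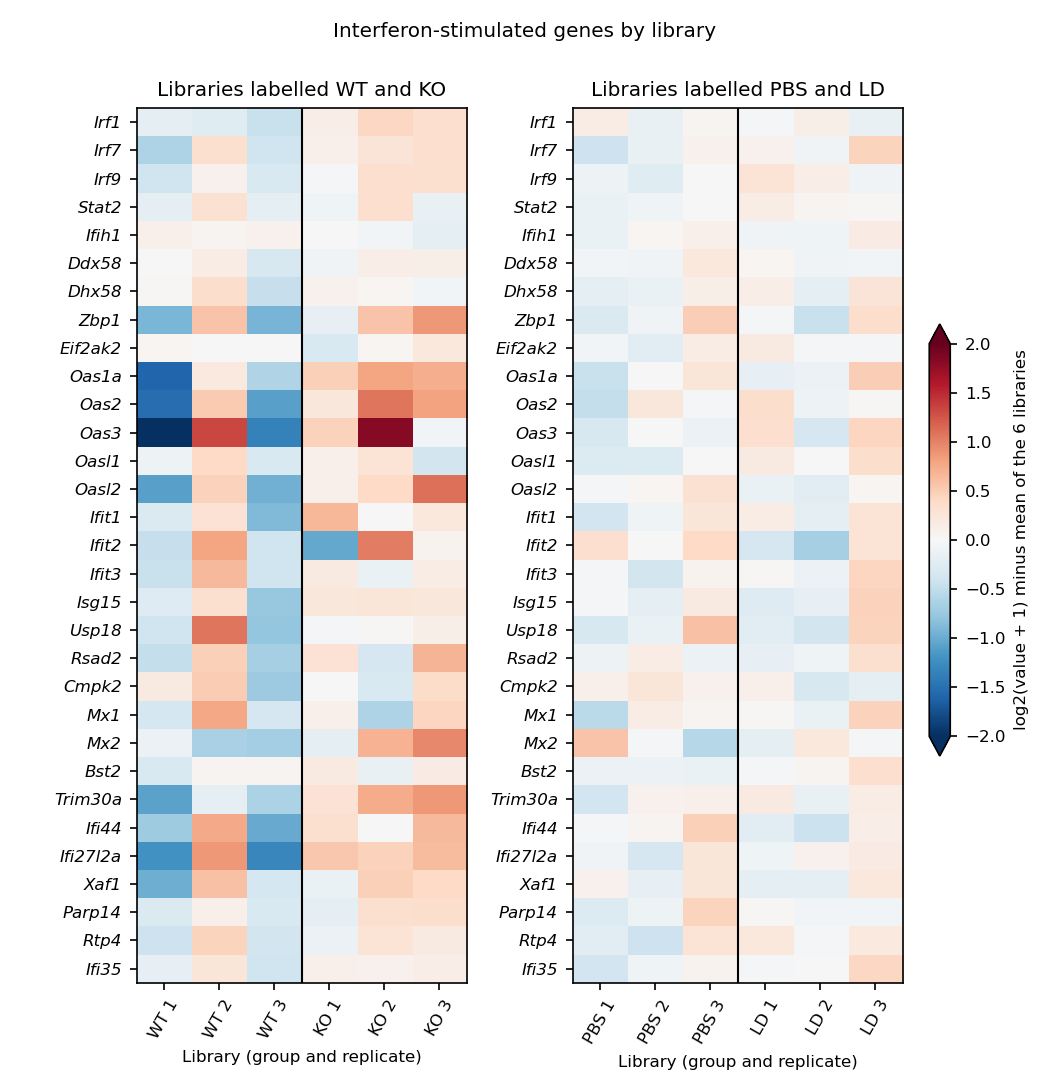
Heat map of the 31 genes (lines, by role) in the 12 bulk libraries (columns), coloured by the log2(normalized count + 1) of the library minus the mean of the 6 libraries of its table. Among the libraries labelled WT, replicate 2 is the highest for 27 of 31 genes, and the libraries labelled PBS and LD show smaller differences.

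Among the transcription factors, Irf1 (chr11:53770014-53778374, plus strand) had normalized counts of 644, 625 and 541 in the libraries labelled WT and 813, 989 and 929.7 in those labelled KO. Every library labelled KO lay above every library labelled WT. The difference was 0.59 ± 0.11 (SE) on the log2 scale (limma, adjusted p = 0.0367), from 603 ± 54.6 (SD, n = 3) to 911 ± 89.3. When 1 library was left out, the call held only without KO replicate 1, and the largest adjusted p was 0.121. Irf9, the DNA-binding part of ISGF3, had 434, 608 and 464 in the libraries labelled WT and 565, 722 and 720.0 in those labelled KO. WT replicate 2 lay above the lowest library labelled KO, and the difference of 0.42 ± 0.16 did not pass (adjusted p = 0.214). Irf7, which amplifies interferon production, gave 0.47 ± 0.22 (661 ± 237 against 881 ± 70.3, adjusted p = 0.32). Stat2 gave 0.06 ± 0.18 (adjusted p = 0.898).

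None of the nucleic acid sensors passed. Ifih1 encodes MDA5 and Ddx58 encodes RIG-I, both detectors of double-stranded RNA in the cytoplasm. Their log2 fold changes were -0.17 ± 0.09 and 0.12 ± 0.14. The libraries labelled KO held 640.2, 619 and 570.2 for Ifih1, each below the 696, 673 and 682 of the libraries labelled WT, and the difference did not pass (adjusted p = 0.376). Dhx58, which encodes the related LGP2, gave 0.05 ± 0.21, and Eif2ak2, which encodes the RNA-activated kinase PKR, gave -0.03 ± 0.16. Zbp1, a sensor of Z-form nucleic acid, had the largest estimate of these 5, 0.85 ± 0.44 (169 ± 111 against 279.6 ± 94.9, adjusted p = 0.36).

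The active enzymes of the OAS family make 2'-5'-oligoadenylates that activate RNase L to cut RNA. In the main fit 4 of the 5 OAS members had estimates above 1 log2 unit although none passed. Oas3, 1 of the 4, passed the filter on low values only through the libraries labelled KO. Its high estimate is therefore no support for a rise of the family. In the other fits of all 6 libraries, Oas3 ranged from 0.96 to 1.55 and Oasl2 from 0.92 to 1.08. Over the whole set 6 of 31 members, Oas3 among them, reached 1 log2 unit in either direction, beside 8.03% of all genes. Oas1a (chr5:120896256-120907521, minus strand) had 21.8, 77.5 and 44.1 in the libraries labelled WT and 94.6, 117 and 112 in those labelled KO. The groups did not overlap, and the difference was 1.33 ± 0.41 (adjusted p = 0.138). Oas2 had 57.0, 238 and 77.1 against 193, 349.8 and 289, so WT replicate 2 lay inside the range of the libraries labelled KO (1.40 ± 0.50, adjusted p = 0.189). Oas3 had the lowest counts, 3.64, 52.9 and 7.35 against 28.3, 74.4 and 19.6, from 3 to 63 reads per library. Its WT replicate 2 exceeded 2 libraries labelled KO, and its estimate of 1.48 ± 0.91 was the least precise of the set (adjusted p = 0.441). Oasl2, an OAS-like gene, had 43.6, 130.4 and 47.8 against 101, 124 and 204, again with WT replicate 2 inside the KO range (1.06 ± 0.45, adjusted p = 0.256). Oasl1, which limits translation of Irf7, gave 0.00 ± 0.23.

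The IFIT proteins bind viral RNA. Ifit1 gave a log2 fold change of 0.59 ± 0.31, Ifit2 0.04 ± 0.55 and Ifit3 0.13 ± 0.29, and none of the 3 passed. Isg15, a ubiquitin-like modifier, had 124, 185 and 86.9 in the libraries labelled WT and 173, 175 and 174 in those labelled KO. The 3 libraries labelled KO were nearly equal, and WT replicate 2 lay above all of them (0.47 ± 0.26, adjusted p = 0.391). Usp18, the protease that removes ISG15 and dampens receptor signalling, gave 0.08 ± 0.43, with its highest value, 240.2, in WT replicate 2.

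Of the antiviral effectors, Trim30a (chr7:104409025-104465193, minus strand) had 77.6, 142 and 105 in the libraries labelled WT and 199, 274 and 297 in those labelled KO. The groups did not overlap, and the rise was 1.26 ± 0.25 on the log2 scale (108 ± 32.3 to 257 ± 51.3, limma adjusted p = 0.0396). Leaving out WT replicate 1 or 3, or KO replicate 2 or 3, ended the call, with adjusted p values up to 0.126. Mx2, a dynamin-like GTPase annotated as a polymorphic pseudogene in mouse, had 110.3, 76.2 and 74.7 against 104, 196 and 235. WT replicate 1 exceeded KO replicate 1, and the estimate was 0.97 ± 0.32 (adjusted p = 0.152). The related Mx1 gave -0.06 ± 0.42. Rsad2 encodes viperin and Cmpk2, its neighbour, a mitochondrial nucleotide kinase, and they gave 0.43 ± 0.36 and 0.03 ± 0.35. Bst2, or tetherin, which holds budding virus at the cell surface, was at 2686 ± 364 and 2953 ± 359 (0.14 ± 0.14).

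The 6 further induced genes did not pass either. Ifi27l2a, a small mitochondrial protein gene, had 49.7, 213 and 46.5 in the libraries labelled WT and 169.6, 161 and 179.7 in those labelled KO. The highest of all 6 values was WT replicate 2, while the other libraries labelled WT were the lowest, and the estimate was 1.09 ± 0.53 (adjusted p = 0.329). Ifi44 gave 0.64 ± 0.46, Xaf1, a promoter of apoptosis, 0.49 ± 0.38, Parp14, an ADP-ribosyltransferase, 0.32 ± 0.18, Rtp4 0.23 ± 0.24 and Ifi35 0.22 ± 0.16. Over the whole set the groups did not overlap for 4 members, Irf1, Oas1a and Trim30a higher and Ifih1 lower, beside 24.2% of all genes (12.4% higher).

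**Figure D2:**
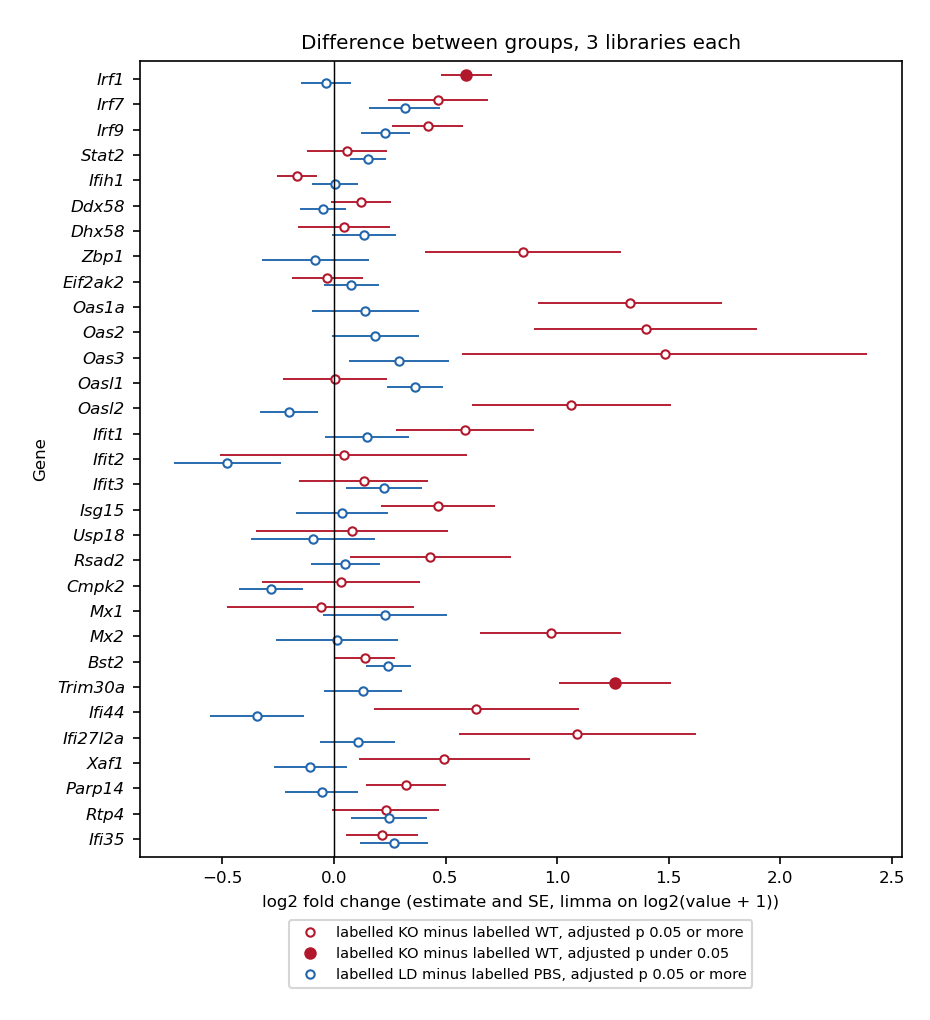
Log2 fold change with its standard error (limma, 3 libraries against 3) of each of the 31 genes, labelled KO minus labelled WT in red and labelled LD minus labelled PBS in blue, with filled points for adjusted p under 0.05. The 2 filled points are Irf1 and Trim30a, and the points for Oas3, Oas2 and Oas1a lie farthest to the right, with wider errors than those 2.

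The members spread widely among the libraries labelled WT. The median range over those 3 libraries was 1.08 log2 units for the members and 0.36 for all genes, and 16 of 31 members ranged over at least 1 log2 unit, beside 14.4% of all genes. WT replicate 2 held the highest of the 3 values for 27 of 31 members, beside 37.4% of all genes, and WT replicates 1 and 3 for 4 and 0, beside 29.5% and 33.0%. It was the highest of all 6 libraries for 13 of 31, beside 17.7%. In the libraries labelled KO the median range was 0.52 and 7 of 31 members reached 1 log2 unit, beside 12.7% of all genes. There the highest value fell on replicate 1, 2 and 3 for 5, 12 and 14 members, beside 35.1%, 29.9% and 35.0% of all genes. Sums over marker lists also stood highest in WT replicate 2 for B or plasma cells (1964) and stellate cells (8245), and the part of these cells in the result was not tested. The labels give no batch for this library.

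WT replicate 2 was singled out by the members' own high values in it. The larger differences and counts without it follow in part from that choice and are no support for a rise. Without WT replicate 2, 4 of 31 members were called higher, beside 2.04% of all genes, and 20 of 31 had an unadjusted p under 0.05, beside 19.1%. The 4 were Ifi27l2a (log2 fold change 1.80, limma adjusted p = 0.0120), Oas2 (2.01, adjusted p = 0.0319), Trim30a (1.48, adjusted p = 0.0410) and Irf7 (0.74, adjusted p = 0.0418). Irf1 was then at 0.62 (adjusted p = 0.0708). The median of the set was 0.62 without this library and 0.21 without WT replicate 3, and no member was called without WT replicate 1, WT replicate 3, KO replicate 2 or KO replicate 3. The authors' deposited table gave 7 members with an adjusted p under 0.05, all higher in the libraries labelled KO (Irf1, Irf9, Oas1a, Oas2, Oasl2, Mx2 and Trim30a), beside 9.37% of its 17449 genes higher and 6.01% lower. In the authors' deposited table Trim30a had the smallest adjusted p of these, 8.24e-08, and Oasl2 the largest, 0.0244.

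**Figure D3:**
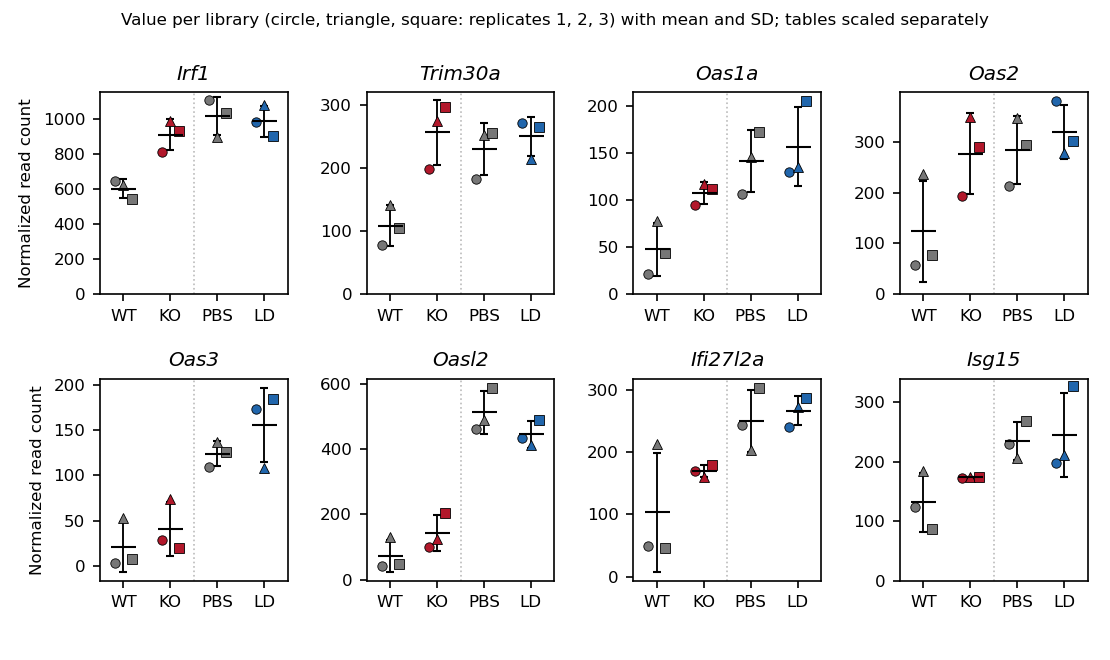
Normalized count per library of 8 of the genes in the 4 bulk groups, with each point a library (circle, triangle and square for replicates 1, 2 and 3) and the bars the group mean and SD; the WT/KO and PBS/LD tables were scaled separately. For Irf1 and Trim30a the points labelled KO lie above all points labelled WT, and for Oas2 and Ifi27l2a 1 library labelled WT stands with those labelled KO.

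Genes around the set in the interferon pathway were counted in the same fit, from lists of other pathway members, beside 3.02% of all genes called higher, 0.701% called lower and 18.7% at an unadjusted p under 0.05. No interferon ligand gene of 18 listed was analysed in this table. Of 17 genes of sensing upstream of interferon, 1 rose: Ikbke, a kinase that activates IRF3 and IRF7, from 540.0 ± 50.3 to 1277 ± 81.8 (1.24 ± 0.10, adjusted p = 0.00288), a call kept in all 6 fits that left out a library. The receptor chains gave 0.05 ± 0.10 for Ifnar1 and 0.06 ± 0.09 for Ifnar2. Of 58 further type I targets, 4 rose and 0 fell, and 21 had an unadjusted p under 0.05. The 4 were Ms4a4c (2.12), Slfn2 (2.01), Apobec3 (1.76), an RNA and DNA deaminase, and Tor3a (1.28). Each of these 4 calls was lost without WT replicate 3, KO replicate 2 or KO replicate 3.

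Of 33 genes tied to interferon gamma, the type II interferon, 5 rose and 3 fell, beside the same 3.02% and 0.701%, and 16 had an unadjusted p under 0.05, beside 18.7%. Among those that rose were the chemokine Cxcl10 (30.4 ± 13.7 to 159 ± 13.7, 2.47, adjusted p = 0.0160), the guanylate-binding proteins Gbp2 (2.23) and Gbp5 (2.07), and Cd274, which encodes PD-L1 (1.43). None of these 4 calls held without KO replicate 2 or 3, and that of Cd274 held only without WT replicate 2. The chemokine Cxcl9 fell by 2.80 (1836 ± 1797 to 196 ± 36.6, adjusted p = 0.0420), and its call held only without WT replicate 3. Gbp2b fell by 2.54, a call held only without WT replicate 1, and Gbp11 fell by 1.86 (4491 ± 1015 to 1220 ± 8.28, adjusted p = 0.00244), a call kept in all 6 fits that left out a library. The list medians were 0.33 for sensing, 0.37 for further type I targets and 0.31 for interferon gamma, beside 0.42 for the 31 genes and -0.02 for all genes.

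Most macrophage markers and 4 of 8 monocyte markers moved with these groups. Of 14 macrophage markers tested 10 were higher in the libraries labelled KO (1 without KO replicate 2 and 3 without KO replicate 3), and the summed level of all 16 was 8105 to 14914 in the libraries labelled WT and 37608 to 61355 in those labelled KO. Of 8 monocyte markers 4 were higher, with sums of 764 to 1229 and 9742 to 18247. Lyz2 alone, at 804 ± 172 and 13385 ± 4091, made up most of these sums. The monocyte markers Ly6c2 (limma, adjusted p = 0.317) and Ccr2 (adjusted p = 0.194) did not pass. Neutrophil markers had 1 of 4 higher, with sums of 77.6 to 127 and 286 to 698, and the dendritic cell sums of 2078 to 5821 and 3463 to 8149 overlapped. No macrophage, monocyte or neutrophil marker was at 0 in all 6 libraries. The part of these cells in the rise of Irf1 and Trim30a was not tested, and in bulk liver fewer cells of a type and less RNA per cell cannot be told apart.

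The second comparison asked how the set differed between livers labelled LD and those labelled PBS, all labelled as chow diet. No member passed in either direction. This is 0 of 31, beside 4.16% of the 14900 genes tested (1.95% higher and 2.21% lower), with 0 also by edgeR and by DESeq2. At an unadjusted p under 0.05 there were 2 members, Oasl1 and Bst2, beside 19.7% of all genes. The estimate was above 0 for 21 of 31 members and for 50.5% of all genes, the median was 0.11 against 0.00, and the range ran from -0.48 to 0.36. In the authors' deposited table no member had an adjusted p under 0.05, beside 3.46% of genes higher and 4.0% lower.

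Oasl1 (chr5:114923240-114937915, plus strand) had normalized counts of 625, 619 and 754 over the PBS-labelled libraries and 853, 757 and 961 over the LD-labelled ones. The groups did not overlap, though LD replicate 2 lay just above PBS replicate 3, and the difference was 0.36 ± 0.12 (limma, unadjusted p = 0.0169, adjusted p = 0.147). Irf7 had 1279, 1531 and 1818 against 1814, 1623 and 2332, with overlap (0.32 ± 0.16, adjusted p = 0.312). Oas3 had 109, 137 and 126 against 173, 109 and 184, with LD replicate 2 at the level of the lowest library labelled PBS (0.29 ± 0.23, adjusted p = 0.529). On the other side, Ifit2 had 247, 195 and 259 against 155, 124 and 238. LD replicate 3 lay among the libraries labelled PBS, and the estimate was -0.48 ± 0.24 (adjusted p = 0.308). Without that library Ifit2 was called lower (-0.74, adjusted p = 0.0456), in a fit that called 8.23% of all genes. Ifi44 had 138, 147 and 198 against 121, 104 and 155 (-0.34 ± 0.21, adjusted p = 0.414), and Cmpk2 had 327, 359.7 and 322 against 327, 243 and 265 (-0.28 ± 0.14, adjusted p = 0.319), both with overlap.

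Irf1 and Trim30a, called between the libraries labelled WT and KO, did not pass here. Irf1 was at 1015 ± 108 (SD, n = 3) over the PBS-labelled libraries and 988 ± 88.4 over the LD-labelled ones (-0.04 ± 0.11), and Trim30a at 230.3 ± 41.4 and 250.2 ± 30.8 (0.13 ± 0.18). Whether the 2 comparisons differ from each other was not tested, since their tables were scaled separately. Bst2 gave 0.24 ± 0.10 (4135 ± 21.3 against 4924 ± 675, unadjusted p = 0.0394, adjusted p = 0.227), and with Stat2 (0.15 ± 0.08) and Oasl1 it was one of 3 members without overlap, all higher, beside 25.4% of all genes (12.6% higher).

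The other members lay between those values. Irf9 gave 0.23, Ifih1 0.00, Ddx58 -0.05, Dhx58 0.13, Zbp1 -0.08 and Eif2ak2 0.08. In the OAS and IFIT families, Oas1a gave 0.14, Oas2 0.19, Oasl2 -0.20, Ifit1 0.15 and Ifit3 0.22. Isg15 gave 0.03, Usp18 -0.09, Rsad2 0.05, Mx1 0.23, Mx2 0.01, Ifi27l2a 0.11, Xaf1 -0.11, Parp14 -0.05, Rtp4 0.25 and Ifi35 0.27. The role medians ran from -0.03 for the ISG15 system to 0.19 for the transcription factors and the OAS family. The members varied less here, with a median range of 0.41 log2 units over the libraries labelled PBS and 0.43 over those labelled LD, and 1 and 0 of 31 members reaching 1 log2 unit, beside 9.54% and 13.6% of all genes. The highest value of the PBS-labelled group fell on replicate 1, 2 and 3 for 2, 6 and 23 members, beside 36.2%, 29.2% and 34.6% of all genes. In the LD-labelled group it fell there for 9, 2 and 20 members, beside 30.8%, 30.1% and 39.1%.

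None of the pathway lists held a called gene in this comparison. At an unadjusted p under 0.05, beside 19.7% of all genes, were 2 of 17 sensing genes and 0 of 9 receptor and signalling genes. So were 6 of 58 further type I targets and 6 of 34 interferon gamma genes. By edgeR 0 of these genes were called, and by DESeq2 3 higher and 1 lower. Ifnar1 was at 0.05 ± 0.08 and Ifnar2 at 0.06 ± 0.10 on the log2 fold scale. The only ligand gene in this table, Ifng, did not pass the filter on low values and was not tested, and lay between 0 and 6.30 normalized counts per library. Beside 1.95% of all genes called higher and 2.21% lower, macrophage markers were mixed, with 2 higher and 3 lower of 16. Their sums were 20637 to 33053 labelled PBS and 18827 to 24707 labelled LD. In the libraries labelled LD, 2 of 9 monocyte markers, 4 of 12 stellate and 5 of 11 cholangiocyte markers were lower. The part of these cells in the members' values was not tested.

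Single-nucleus data placed the members in cell groups. The authors deposited, for each of 12 numbered groups of nuclei, the mean UMI count per nucleus (molecules, scaled to about 9993 per nucleus) in the wild-type and in the Ms4a7 KO library. The groups carry no names, and 11 of the 12 were named from marker genes, with a naming rule set after the table was seen. Group 3 had all 16 macrophage markers and groups 0 and 1 had 5 and 11 of 12 hepatocyte markers, while group 8 stayed unnamed. With 1 library per genotype there is no test. How doublets and free RNA were treated is not given in the sources used here, and mean values per group allow no correction for either, which bears most on levels far under 1 molecule per nucleus. The labels for these nuclei went with Ms4a7: the level in macrophage-like nuclei was 1.25 in wild type and 0.622 in KO, and it was lower in KO in every group where it was above 0 in wild type. Where the deletion lies is not given, so transcript tags that remain may check nothing.

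The summed level of the 29 members was highest in the macrophage-like and neutrophil-like nuclei, at 25.7 and 26.5 molecules per nucleus in wild type and 31.3 and 28.8 in KO. It was lowest in the 2 hepatocyte-like groups, at 4.97 and 6.73 in wild type and 5.26 and 7.02 in KO. Stellate cell-like (16.0 and 17.6) and endothelial cell-like nuclei (16.2 and 18.1) lay between, as did dendritic cell-like (14.6 and 19.5), T or NK cell-like (10.4 and 13.8), mesothelial cell-like (12.3 and 16.8) and unnamed nuclei (19.8 and 22.4). Cholangiocyte-like (7.25 and 7.65) and B or plasma cell-like nuclei (8.96 and 10.5) lay nearer the hepatocytes. The KO sum was above the wild-type sum in each of the 12 groups, but a few abundant members weigh most in it: in hepatocyte-like group 0 Stat2 went from 1.43 to 1.69 while 5 of 16 members had a ratio above 1. In macrophage-like nuclei 27 of 29 members lay above both hepatocyte-like groups in wild type (not Stat2 and Rtp4) and 28 of 29 in KO (not Stat2), beside 42.1% of all genes in each library.

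**Figure D4:**
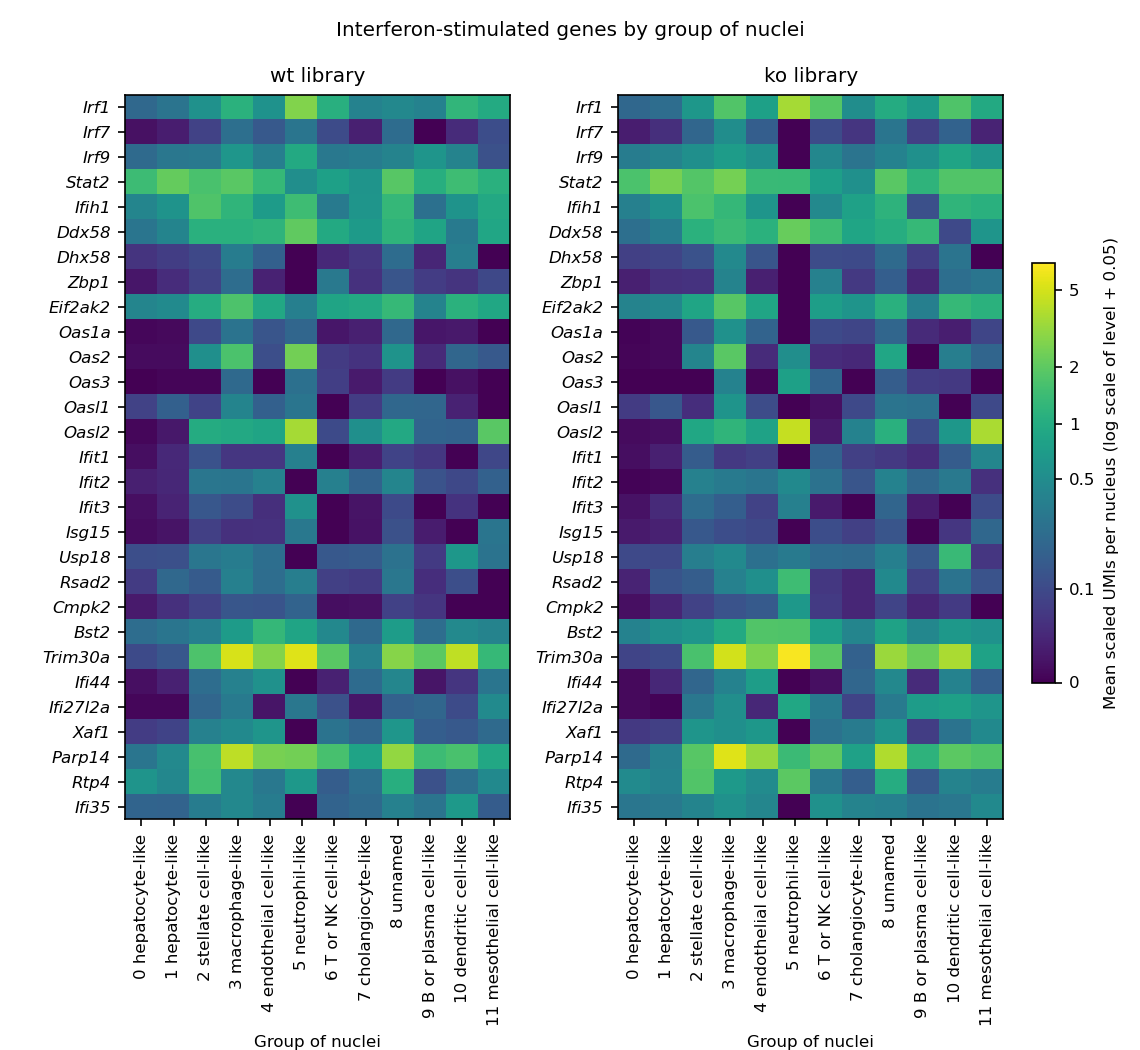
Level of each of the 29 genes (lines) in the 12 groups of nuclei (columns) of the wild-type and the KO library, as mean scaled UMIs per nucleus on a log colour scale of level + 0.05, brighter being higher. Trim30a and Parp14 are bright in macrophage-like nuclei, and the hepatocyte-like columns are dark for most genes other than Stat2.

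Over 50% of all genes were listed at 0 in the neutrophil-like group in both libraries (63.3% and 70.7%). The same held for the mesothelial cell-like group in wild type (51.6%). With all 12 groups kept, the neutrophil-like group was highest for 12 of 29 members in wild type and 11 in KO. The share of all genes was 9.53% and 9.93%. Macrophage-like nuclei were highest for 5 and 8 members, beside 7.26% and 7.11%. Irf1 (2.67 and 3.55) and Trim30a (5.40 and 6.67) peaked in the neutrophil-like group in both libraries. From here on, the highest group of each gene is given without the neutrophil-like and mesothelial cell-like groups, a choice made after seeing the data. Macrophage-like nuclei then held the highest level for 12 of 29 members in wild type and 11 in KO, beside 9.82% and 9.46% of all genes. The highest group was the same in both libraries for 16 of 29. Trim30a was highest in macrophage-like nuclei (5.18 and 4.97), as were Parp14 (4.23 and 5.44), Oas2 (1.66 and 1.93), Eif2ak2 (1.72 and 1.88), Oasl1 (0.412 and 0.593), Oas1a (0.281 and 0.556), Irf7 (0.254 and 0.517) and Oas3 (0.223 and 0.4003). Oas2 in the next group, the unnamed nuclei, was at 0.580 and 0.874. For these 8 genes both libraries placed the peak in the same group.

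Other members peaked elsewhere in both libraries. Stat2 was highest in 1 of the hepatocyte-like groups (2.14 and 2.48), just above macrophage-like nuclei (1.94 and 2.46). Ifih1 (1.73 and 1.69), Rtp4 (1.52 and 1.79) and Ifit3 (0.140 and 0.239) were highest in stellate cell-like nuclei, Bst2 (1.30 and 1.79) and Ifi44 (0.555 and 0.739) in endothelial cell-like nuclei, Usp18 (0.629 and 1.38) in dendritic cell-like nuclei and Ifit2 (0.421 and 0.397) in the unnamed group.

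For 13 members the peak moved between the libraries, in most cases between groups of similar level. Among the groups kept, Irf1 was highest in dendritic cell-like nuclei in wild type (1.24) and in T or NK cell-like nuclei in KO (1.84). Macrophage-like nuclei were next in both (1.12 and 1.79). Irf9, Ifi27l2a, Rsad2 and Cmpk2 were highest in macrophage-like nuclei in wild type (0.620, 0.325, 0.382 and 0.138). In KO the first pair peaked in dendritic cell-like nuclei (0.847 and 0.779), the second in endothelial cell-like nuclei (0.534 and 0.154). Dhx58 (0.366) and Ifi35 (0.663) peaked in dendritic cell-like and Zbp1 (0.321) in T or NK cell-like nuclei in wild type, and in KO Dhx58 (0.467) and Zbp1 (0.409) peaked in macrophage-like and Ifi35 (0.559) in T or NK cell-like nuclei. Oasl2 went from stellate cell-like (1.004) to macrophage-like (1.22), Ifit1 from stellate cell-like (0.125) to T or NK cell-like (0.184), and Ddx58 from the unnamed group (1.19) to T or NK cell-like (1.45). Isg15 peaked in the unnamed group (0.122) and then in stellate cell-like nuclei (0.144), and Xaf1 in the unnamed group (0.614) and then in endothelial cell-like nuclei (0.630).

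Between genotypes, the macrophage-like nuclei showed the members mostly higher in KO. The ratio of KO to wild type was above 1 for 27 of the 29 members, beside 52.7% of the 10955 genes above the level filter (those over the 50th percentile of mean level in that group). The exceptions were Trim30a (5.18 in wild type and 4.97 in KO) and Cmpk2. The median log2 ratio was 0.36, against 0.02 over all genes. At least 2-fold higher were 2 of 29, Irf7 (0.254 and 0.517) and Isg15 (0.0492 and 0.111), beside 4.81% of all genes, and none was 2-fold lower, beside 2.89%. Oas1a was just inside that limit (0.281 and 0.556). Irf1 was at 1.12 and 1.79. The receptor genes Ifnar1 (1.18 and 1.08) and Ifnar2 (4.32 and 4.36) were close to equal in these nuclei.

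Dendritic cell-like nuclei had the largest median log2 ratio of the 12 groups, 0.77 against 0.03 over all genes, with 11 of 23 members at least 2-fold higher and 2 at least 2-fold lower, beside 17.2% and 14.3% of all genes. Higher were Ifi27l2a (0.105 and 0.779), Usp18 (0.629 and 1.38), Oasl2 (0.188 and 0.631), Irf7 (0.0421 and 0.185), Ifit2 (0.0965 and 0.321), Irf9, Ifih1, Zbp1, Rsad2 and Ifi44, and also Ifit1, which was listed at 0 in wild type. Lower were Ddx58 (0.331 and 0.0981) and Ifi35 (0.663 and 0.307). In this group 45.1% and 44.4% of all genes were listed at 0.

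In T or NK cell-like nuclei 6 of 23 members were at least 2-fold higher, beside 9.03% of all genes, and 1 was at least 2-fold lower, beside 7.5%. These were Oas1a (0.0172 and 0.1004), Ifi35 (0.193 and 0.559), Ifi27l2a (0.119 and 0.323), Dhx58, Oas3 and Ifit1 (listed at 0 in wild type), and on the lower side Oasl2 (0.103 and 0.0203). The table held 2 interferon ligand genes, Ifng, the type II interferon, and Ifnk, a type I interferon. Only their sum was taken, so type I and type II ligand cannot be told apart in it. This sum was 0.0460 in wild type and 0.395 in KO in T or NK cell-like nuclei, and 0 and 0.124 in dendritic cell-like nuclei. It was 0.00520 and 0.0145 in hepatocyte-like group 0, 0.00942 and 0.0156 in group 1, and 0 in both libraries in the other 8 groups.

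In stellate cell-like, endothelial cell-like, B or plasma cell-like, cholangiocyte-like and unnamed nuclei, 0 to 2 members passed the 2-fold limit in either direction. Irf7 was higher in stellate cell-like nuclei (0.0824 and 0.205, 1 of 28 beside 6.02% of all genes), and no member was 2-fold lower there, beside 2.79%. Rsad2 was higher (0.243 and 0.534) and Oas2 lower (0.115 and 0.0416) in endothelial cell-like nuclei, 1 each of 26, beside 6.86% and 3.75%. Ifi27l2a was higher in B or plasma cell-like nuclei (0.208 and 0.721, 1 of 21 beside 11.6%), with none lower, beside 9.62%. Trim30a was lower in cholangiocyte-like nuclei (0.377 and 0.182, 1 of 18 beside 3.96%), with none higher, beside 7.42%. In the unnamed group Irf1 (0.447 and 0.999) and Oas3 were higher, 2 of 29 beside 8.0%, and none was 2-fold lower, beside 4.03%.

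At the main level filter, hepatocyte-like nuclei leaned the other way. The ratio was above 1 for 5 of 16 members in group 0 and 8 of 21 in group 1, beside 52.7% and 47.0% of all genes, and the median log2 ratios were -0.15 and -0.14. Rsad2 was at least 2-fold lower in group 0 (0.0684 and 0.0314, 1 of 16 beside 1.79%). No member was 2-fold higher in group 0 (3.98% of all genes) or in group 1 (4.21%), nor 2-fold lower in group 1 (3.93%). Bst2 was higher in both hepatocyte-like groups (0.245 and 0.397, 0.294 and 0.536). With genes above the 75th percentile of level, the lean was not seen in group 0. There 3 of 6 members had a ratio above 1, beside 42.5% of all genes, with a median log2 ratio of 0.09 against -0.05. In group 1 it was 3 of 8, beside 39.3%, with a median of -0.12 against -0.08.

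In the neutrophil-like group, where most genes were at 0, 8 of 24 members were higher and 9 lower, 8 of the latter listed at 0 in KO, beside 23.4% and 31.8% of all genes. Higher there were Stat2, Oas3, Rsad2, Cmpk2, Ifi27l2a and Rtp4, with Ifit2 and Usp18 listed at 0 in wild type. Lower was Oas2 (2.40 and 0.521), and Irf7, Irf9, Ifih1, Eif2ak2, Oas1a, Oasl1, Ifit1 and Isg15 were listed at 0 in KO. In the mesothelial cell-like group 7 of 25 were higher (Irf9, Zbp1, Ifit1 and Ifi35, with Oasl1, Ifit3 and Rsad2 listed at 0 in wild type) and Ifit2 and Usp18 were lower, beside 21.2% and 16.1%.

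**Figure D5:**
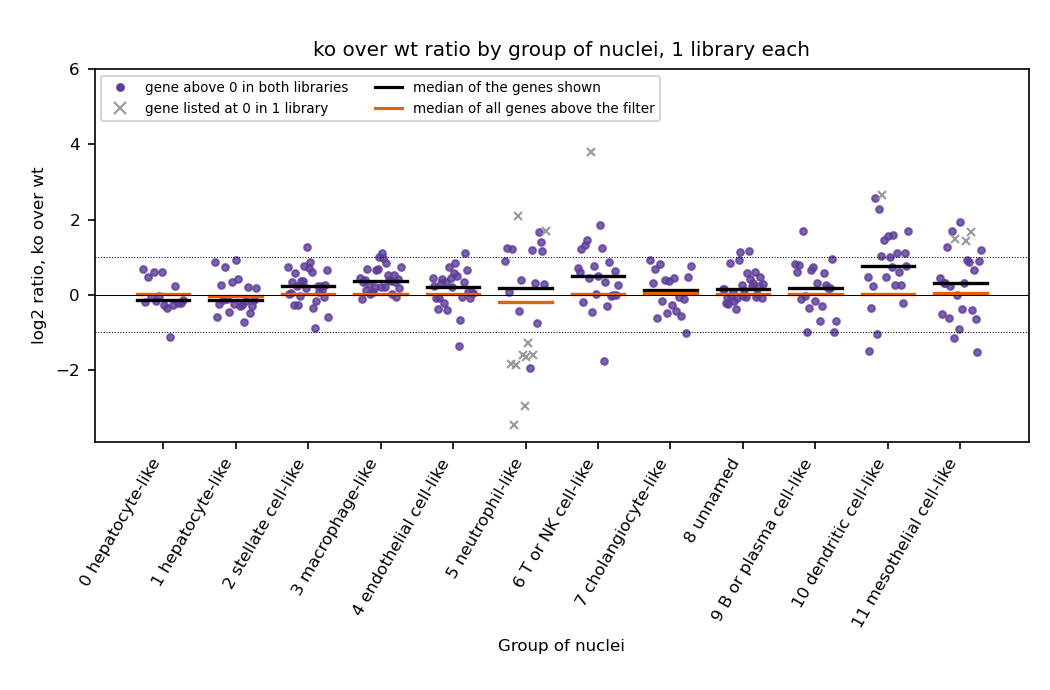
Log2 ratio of KO over wild type in each of the 12 groups of nuclei (1 library per genotype), with each point a gene of the set above the level filter, crosses for genes listed at 0 in 1 library, and lines at the medians of the set (black) and of all genes (orange). The black line lies highest above the orange one in dendritic cell-like nuclei and below it in both hepatocyte-like groups.

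Across groups, the direction was steadiest for Bst2, which was higher in KO in 12 of 12, beside 3.33% of the 4112 genes above 0 in every group of both libraries. Ifi27l2a was higher in 11 groups and Stat2 in 10, where 14.0% of those 4112 genes were higher in 10 or more. Irf7 was also higher in 10, but was above 0 in both libraries in only 10 groups. The 12 groups come from the same 2 libraries and are not replicates. Trim30a, called higher in the bulk libraries labelled KO, was lower in KO nuclei in 9 of 12 groups, in several by little. Its ratio was 0.959 in macrophage-like, 0.955 in stellate cell-like, 0.943 in endothelial cell-like and 0.997 in T or NK cell-like nuclei. The lowest was 0.494, in cholangiocyte-like nuclei. Irf1 was higher in 9 of 12. The bulk and nuclear values are set side by side only, since the bulk genotype labels go against Ms4a7 and the nuclear ones do not.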

How the data were processed

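The bulk tables hold, per the submitters' processing notes, counts from STAR (build mm10) scaled in DESeq2. The deposited values are a normalized signal: in every library 100.0% of them were whole multiples of 1 read within 0.01, so whole reads were recovered for the edgeR and DESeq2 alternatives. The authors' deposited p-values and log2 fold changes were read only where named. The nuclei table holds the authors' mean signal per group (Cell Ranger and Seurat 4.0.1, per the submitters' processing notes). Each bulk table was fitted alone with limma 3.58.1 (R 4.3.3, lmFit and eBayes with trend, two-sided) on log2(value + 1), for genes with at least 10 in 3 or more libraries, with Benjamini-Hochberg adjustment over all genes tested and a threshold of 0.05. Fold changes are therefore differences of means on the log2(value + 1) scale, where the added 1 shrinks those of low genes. A mean of log values can also differ from a ratio of group means, as for Oas3 (1.48, with means of 21.3 labelled WT and 40.8 labelled KO). Nuclei ratios used genes above the 50th percentile of level and a pseudocount equal to the 5th percentile of nonzero values, in Python 3.11.15 (pandas 2.3.3, numpy 2.4.6, matplotlib 3.10.9). In the table of nuclei, 4 entries with repeated names were left out. Alternatives were edgeR 4.0.16, DESeq2 1.42.0, other scalings, pseudocounts and filters, a replicate block, and each library left out. The fit was tested on simulated data. The members and lists were chosen with earlier results of these data known. Values per library are given for members called or among the 6 largest log2 fold changes of a comparison, with a few others chosen after their values were seen. A gene of the pathway lists is not reported here.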

Additional observations from a re-analysis of the deposited data

How the results depend on the processing

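The main fit of the KO-WT comparison called 589 genes (3.72% of those tested), 2 of 31 members, and 11 pathway genes higher and 3 lower. DESeq2 called 1241 genes (7.84%), 4 of 31 members and 28 pathway genes higher. By DESeq2 the members were Oas1a (adjusted p = 0.0472) and Mx2 (adjusted p = 0.0280) beside Irf1 and Trim30a. Counts of pathway genes are to be read beside these shares. Leaving out 1 library gave 124 to 530 genes (0.783% to 3.35% of those tested) and 0 to 4 of 31 members higher. It gave 1 to 12 pathway genes higher and 1 to 2 lower, 1 to 9 macrophage markers higher and a median of 0.21 to 0.62. In the LD-PBS comparison (620 genes, 4.16% of those tested, and 0 members) DESeq2 called 1221 genes (8.19%), with 3 pathway genes higher and 1 lower. Quantile normalization called 1 pathway gene lower, beside 3.57% of all genes. Leaving out 1 library gave 134 to 1226 genes (0.899% to 8.23% of those tested) and 0 to 1 of 31 members lower. It gave 0 to 1 pathway genes higher and 0 to 2 lower, 1 to 2 macrophage markers higher and a median of 0.01 to 0.18. No named gene changed direction past a threshold under any of these.

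The replicate numbers did not pair the samples: deviations of same-numbered libraries correlated at 0.12, -0.03 and -0.02 in the KO-WT comparison and 0.05, -0.04 and 0.13 in the LD-PBS one. With the number as a block, 822 and 793 genes were called (5.19% and 5.32% of those tested). In the KO-WT comparison this gave 24 pathway genes higher, and Trim30a and Oas2 (adjusted p = 0.0419) as the 2 members, Irf1 being at 0.0536. In the LD-PBS comparison it gave 2 pathway genes higher and 1 lower.

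In the nuclei, 39 of 283 pairs of a member and a group were 2-fold higher and 17 lower. By group, the share of all genes ran from 3.98% to 23.4% higher and from 1.79% to 31.8% lower. The neutrophil-like, dendritic cell-like and mesothelial cell-like groups held 8, 11 and 7 of the higher pairs and 9, 2 and 2 of the lower. No share over all pairs was taken, here or for the alternatives, so these counts show no excess. The pairs higher and lower were 23 and 11 with a pseudocount at the 25th percentile, 18 and 4 with genes above the 75th percentile, and 26 lower with genes above the 25th. Without the 2 groups with over 50% of genes at 0, chosen after seeing the data, they were 24 and 6, and 12 members instead of 5 were highest in wild-type macrophage-like nuclei. The cause was not tested for any of these. Leaving out a single library ended each of the member calls of the KO-WT comparison, and low depth limits Oas3 most, with 3 to 63 reads per library.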
